A study of Mus musculus with 4 samples.

Results

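The genes described here encode the natriuretic peptides of the heart, the enzymes that process them and the receptors that read or clear them, with an atrial ligand, Bmp10, beside them. There were 10 such genes, each with 1 probe, among 19321 genes with a named probe on the array. They were chosen by gene symbol when earlier results of these arrays were already known, the difference of Nppa between the genotypes among them, so their levels are given as a description. A probe was taken as above background if its spot was brighter than the 95th percentile of the blank and negative control spots on the same array. Detection decided which of the 10 genes entered the fit and not which were chosen.

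RNA was prepared from the ventricle muscle of male 129SV mice. The 2 groups were wild type and Trpc6-/-, a genetic deletion of the calcium-permeable cation channel TRPC6, with 2 arrays each. Neither the mice's age nor any treatment was given in the sources used here. Nothing said whether the samples of a group came from separate animals, so the spread behind the p-values may be technical. The limma p-values join a gene's own spread between these samples with a spread estimated over all genes. The degrees of freedom were 2 for the former and 2.486 for the latter. Each sample was labelled with Cy5 and read on 1 array.

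Atrial natriuretic peptide (ANP, from Nppa) and B-type natriuretic peptide (BNP, from Nppb) are hormones that cardiomyocytes secrete when the wall is stretched. In the adult mouse Nppa is strongly expressed in the atria, and ventricular expression of both genes is a marker of load and hypertrophy. The peptides are cut from precursors, then bind receptors that make cGMP in vessels, kidney and the heart itself. Protein kinase G, which cGMP activates, is known to phosphorylate TRPC6 and to inhibit it, and calcium entering through TRPC6 is known to activate calcineurin and its target NFAT.

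Nppa and Nppb are direct neighbours on mouse chromosome 4 and share regulatory DNA, so the promoters of both, and of Bmp10, are shown here as the sequences in front of the 3 ligand genes that were measured above background. Sequences are from RefSeq on GRCm38.p6 and run from 250 bases before to 50 after the start site. Capitals mark AGATAA or TGATAA, the letters that GATA factors bind, on either strand.
Nppa, chr4:148000472-148000771, plus strand: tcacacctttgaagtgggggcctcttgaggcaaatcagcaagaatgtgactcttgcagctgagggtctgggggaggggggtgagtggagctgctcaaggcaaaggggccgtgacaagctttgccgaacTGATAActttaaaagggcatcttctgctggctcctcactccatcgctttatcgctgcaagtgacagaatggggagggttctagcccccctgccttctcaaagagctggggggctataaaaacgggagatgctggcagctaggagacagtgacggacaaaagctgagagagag
Nppb, chr4:147985650-147985949, plus strand: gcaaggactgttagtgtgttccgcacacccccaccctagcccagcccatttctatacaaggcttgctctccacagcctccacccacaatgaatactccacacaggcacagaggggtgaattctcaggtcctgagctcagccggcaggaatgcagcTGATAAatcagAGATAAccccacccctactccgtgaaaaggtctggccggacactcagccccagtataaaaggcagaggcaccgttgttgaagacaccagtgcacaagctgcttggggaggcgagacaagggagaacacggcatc
Bmp10, chr6:87428744-87429043, plus strand: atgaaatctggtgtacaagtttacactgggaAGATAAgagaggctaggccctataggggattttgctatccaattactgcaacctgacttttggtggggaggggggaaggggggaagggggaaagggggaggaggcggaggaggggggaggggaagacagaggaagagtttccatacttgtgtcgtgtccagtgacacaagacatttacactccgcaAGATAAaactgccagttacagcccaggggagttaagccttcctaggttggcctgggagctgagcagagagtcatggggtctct

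Windows were found for all 10 genes, 12 in total since Furin and Pam had several start sites. Nppa held TGATAA once, beginning 122 bases before the start. Nppb held TGATAA and AGATAA, beginning 95 and 84 bases before it and separated by a short spacer. Bmp10 held AGATAA at 219 and at 33 bases before the start. The GATA letters appeared in none of the windows of the other 7 genes, and in 18.6% of all 32851 windows of the table. GGAAAA, the core that NFAT binds, occurred in Corin alone, at 210 bases before the start on the opposite strand, against 23.4% of all windows. The CArG box of serum response factor, searched on both strands, occurred in none of them, against 1.63% of all windows. These matches are descriptions of the letters and say nothing of binding in these hearts.

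The median gene probe read 95.5 to 106 intensity units per array and the median blank spot 78.4 to 87.5 units, so most probes lay close to background. Between 76.3% and 83.2% of gene probes were above background. The Trpc6 probe was above background on none of the 4 arrays and did not check the labels. Of the 10 genes, 8 were above background on all 4 arrays and entered the fit of 15955 genes, while Nppc and Npr1 were below the cutoff on every array. The brightness of a probe also depends on its sequence, so levels are not compared between genes.

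**Figure D1:**
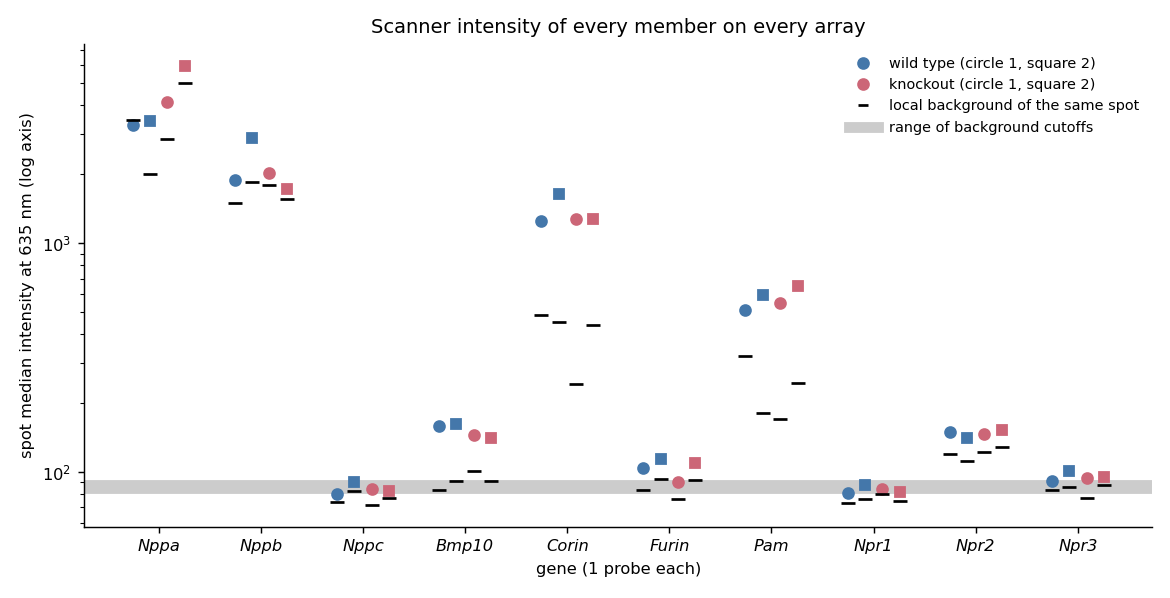
Spot median intensity of each gene's probe on each array (vertical log axis, intensity units), in wild type (blue) and knockout (red), with the local background of the same spot (black dash) and the range of background cutoffs over the 4 arrays (grey band). Nppc and Npr1 lie at the band or just below it, and the local background of Nppa and Nppb is 0.588 to 1.06 times the spot itself.

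Nppa was the member with the largest difference. Its spot intensity was 3275 and 3419 units in wild type against 4126 and 5952 units in the knockout. Both knockout arrays lay above both wild-type arrays, and the second knockout array stood well above the first. After normalization the log2 intensities were 11.68 and 11.64 in wild type against 11.99 and 12.61 in the knockout, means of 11.66 ± 0.03 (SD, n = 2) and 12.30 ± 0.43 (SD, n = 2). The knockout mean was 1.56-fold higher, a log2 fold change of 0.64 ± 0.21 (SE). Every SE of a log2 fold change here is limma's moderated one, which draws each gene's variance towards that of all genes. It is not the SE from a gene's own arrays alone. Of all genes fitted, 0.113% had a larger absolute difference. The log2 gap between the knockout arrays of Nppa was 0.61, about as large as the difference between the genotypes, and only 0.169% of genes had a larger gap between those arrays. Most probes lay close to background, where the offset added before the log2 step shrinks differences, so both shares depend partly on brightness. Without the second knockout array the log2 fold change was 0.33. The authors' table lists 3139.8 and 2687.5 units in wild type against 3841.6 and 6007.2 units in the knockout, a ratio of 1.69.

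The surroundings of the Nppa spot were bright too. Its local background was 3457 and 2010 units in wild type against 2857 and 5006 units in the knockout. Relative to the spot this was 1.06 and 0.588 times in wild type against 0.693 and 0.841 times in the knockout. On the first wild-type array the local background exceeded the spot, as it did for 3.49% of probes brighter than 1000 units on that array. With the local background subtracted before normalization, Nppa was at 5.75 and 10.26 in wild type against 10.20 and 10.18 in the knockout. The groups then overlapped, the second wild-type array being the highest, and the fold change of 2.18 on the log2 scale rested on the first wild-type array.

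Nppb, the neighbouring gene for BNP, did not share this pattern. Its spot intensity was 1883 and 2886 units in wild type against 2035 and 1732 units in the knockout. The second wild-type array was the highest and the knockout arrays lay on either side of the first wild-type array, so the groups overlapped. Normalized log2 means were 11.13 ± 0.33 (SD, n = 2) and 10.90 ± 0.13 (SD, n = 2), a log2 fold change of -0.23 ± 0.17 (SE). The difference rested on 1 array, since it was -0.00049 with the second wild-type array left out, and -0.47 with the first left out. With local background subtracted it was -1.36 and the groups no longer overlapped. Within an array, the log2 intensity of Nppa minus that of Nppb was 0.78 and 0.27 in wild type against 1.005 and 1.80 in the knockout, so the ratio of the neighbours lay higher on both knockout arrays. The difference of 0.87 between the genotypes is a description: an exact two-sided permutation test of 2 against 2 arrays cannot give a p below 0.333, and Nppa was chosen with its difference known.

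Nppc, which encodes C-type natriuretic peptide, a product mainly of endothelium, cartilage and brain, was below the background cutoff on every array. Its probe read 79.9 and 90.2 units in wild type against 84.6 and 82.6 units in the knockout, from 0.986 to 0.991 times the cutoff of its array. No fold change is given for it, and the authors' table holds no value for it.

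Bmp10, a ligand of the BMP family that adult mouse hearts make in the atria, was at 159 and 161 units in wild type against 144 and 140.99 units in the knockout. Both knockout arrays lay below both wild-type arrays. The normalized log2 values were 7.06 and 6.92 in wild type against 6.90 and 6.84 in the knockout, and the gap between the nearest arrays of the groups was only 0.014. The log2 fold change was -0.12 ± 0.06 (SE). It was -0.19 without the second wild-type array and -0.045 without the first, and -0.27 after local background subtraction. In the authors' table the groups overlapped, at 79.5 and 59.5 units in wild type against 58.5 and 61.1 units in the knockout.

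**Figure D2:**
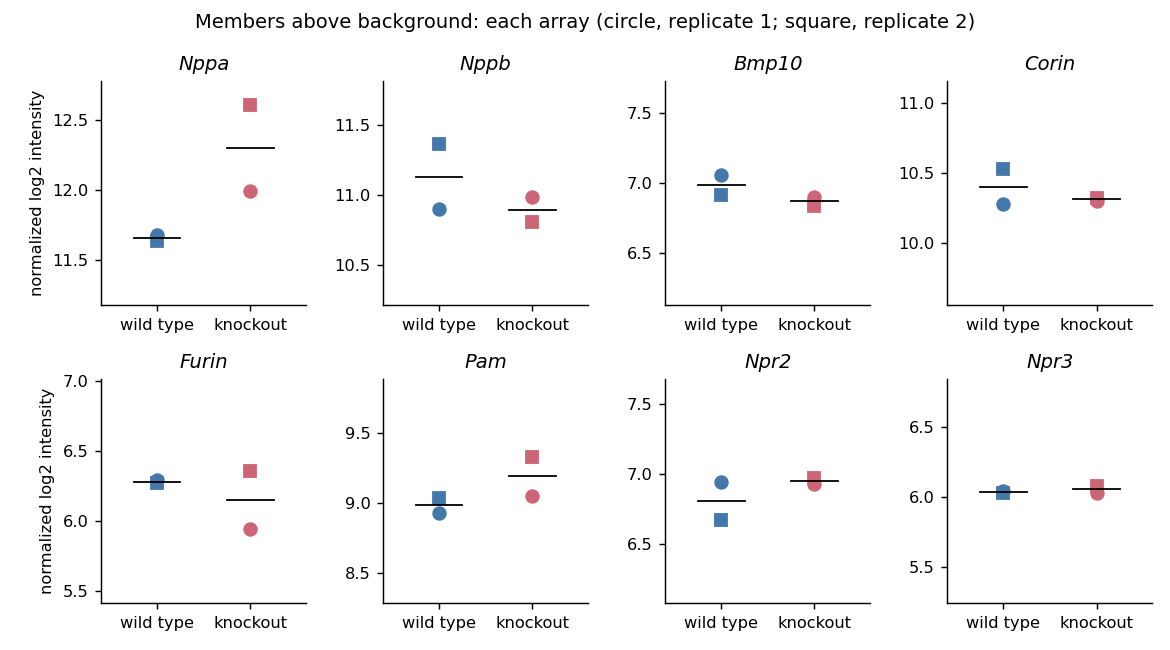
Normalized log2 intensity (vertical axis, the same span of log2 units in every panel) of the 8 genes above background on the wild-type (blue) and knockout (red) arrays, with the group mean as a line. Nppa and Pam lie higher and Bmp10 lower on both knockout arrays, and the other genes overlap.

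Of the processing enzymes, Corin, the membrane protease of cardiomyocytes that cuts pro-ANP, was bright and nearly level. It read 1245 and 1643 units in wild type against 1274 and 1279.8 units in the knockout. Both knockout arrays lay between the wild-type arrays, close to the first. The log2 fold change was -0.09 ± 0.09 (SE), 0.035 without the second wild-type array and -0.22 without the first.

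Furin, the proprotein convertase that cuts pro-BNP and pro-CNP, read 104 and 114 units in wild type against 90.2 and 109 units in the knockout. The first knockout array was the lowest and only 1.05 times its background cutoff, and the second lay above both wild-type arrays in normalized log2. The log2 fold change was -0.13 ± 0.14 (SE), 0.078 without the first knockout array and -0.34 without the second. The gap between the knockout arrays was 0.42 on the log2 scale, exceeded by 0.62% of genes. In the authors' table the first knockout array was at 7.0 units against 21.2 to 28.8 units on the other arrays, and its log2 fold change with these values was -0.70.

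Pam encodes the amidating enzyme of peptide hormones and is a major membrane protein of atrial secretory granules. Its spot read 508 and 595 units in wild type against 546 and 648 units in the knockout. After normalization the log2 values were 8.92 and 9.04 in wild type against 9.05 and 9.33 in the knockout, so the groups did not overlap, although the nearest arrays were only 0.014 apart. The log2 fold change was 0.21 ± 0.11 (SE), or 15.5% higher. As with Nppa, the second knockout array was the highest, and without it the log2 fold change was 0.07. Without the first knockout array it was 0.35, and after local background subtraction 0.47.

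Among the receptors, Npr1, the guanylyl cyclase that binds ANP and BNP, was below the background cutoff on every array. Its probe read 80.8 and 87.9 units in wild type against 84.1 and 82.1 units in the knockout, from 0.961 to 0.999 times the cutoff, and no ratio of the groups is given. Of the 4 arrays, the authors' table has a value only for the first in wild type, 2.3 units.

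Npr2, the guanylyl cyclase for C-type natriuretic peptide, read 149 and 141 units in wild type against 146 and 152 units in the knockout. In normalized log2 the second wild-type array was low, at 6.67, and the other arrays lay between 6.93 and 6.97. The log2 fold change was 0.14 ± 0.10 (SE), 0.0039 once the second wild-type array was left out, 0.28 once the first was, and -0.05 after local background subtraction.

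Npr3, the clearance receptor, which takes up natriuretic peptides and has no cyclase domain, was barely above background, at 1.10 to 1.14 times the cutoff. It read 91.3 and 100.6 units in wild type against 93.7 and 95.1 units in the knockout. The groups overlapped, with a log2 fold change of 0.023 ± 0.040 (SE). The offset added before the log2 step shrinks differences of probes this dim, and the authors' table gives a ratio of 1.06.

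In limma's fit of all 15955 genes with Benjamini-Hochberg adjustment, 0 of the 8 members had an adjusted p under 0.05, against 0% of all genes, which is 0 genes. The members' adjusted p-values ran from 0.727 for Nppa to 0.945 for Npr3. At an unadjusted p under 0.05 there was 1 member of 8, Nppa, against 6.74% of all genes, or 1076 genes. The groups did not overlap in 3 members, against 36.8% of all genes. Of these Nppa and Pam lay higher in the knockout, where 19.4% of all genes did, and Bmp10 lay lower, where 17.4% did. The median log2 fold change was -0.034 over the members and 0.0017 over all genes, and the median absolute difference was 0.14 and 0.043. The offset shrinks differences of dim probes, and most probes were dim, so the absolute medians depend partly on brightness. With 8 genes, and Nppa known beforehand to differ, nothing particular to the group is read from these counts.

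**Figure D3:**
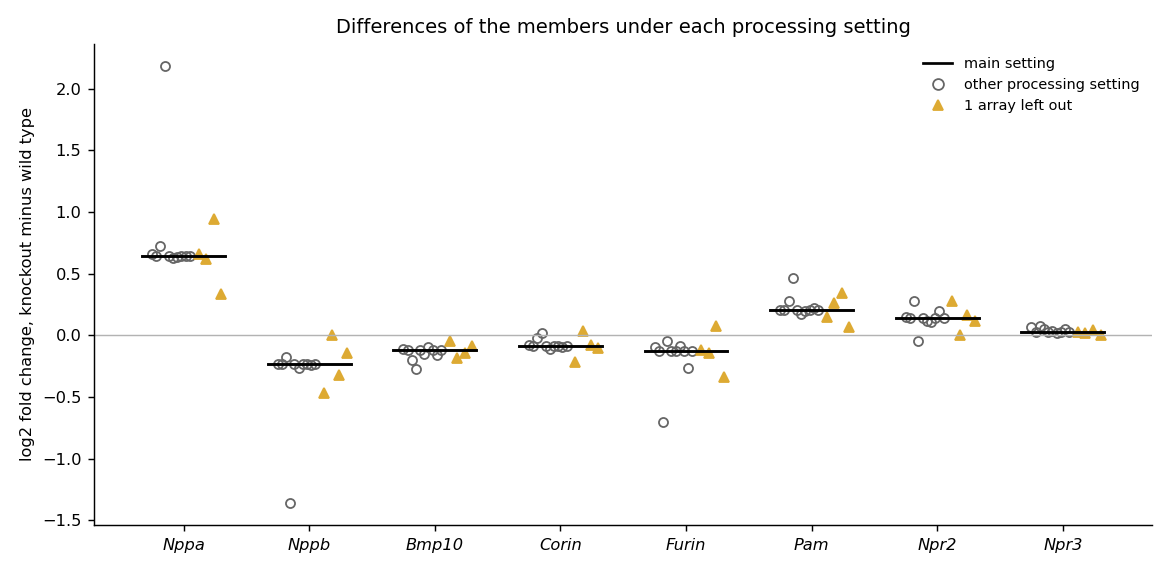
Log2 fold change (knockout minus wild type, vertical axis) of the 8 members with the main processing (black line), with each other processing setting (open circles) and with 1 array left out (triangles). Nppa stays above 0 and is lowest, at 0.33, without the second knockout array; the far points of Nppa and Nppb, at 2.18 and -1.36, are with local background subtracted.

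Nppa, Bmp10 and Pam are all abundant in atria, so markers of atrial and ventricular cardiomyocytes were read beside them. In bulk tissue a different share of cells and a different amount of RNA per cell cannot be told apart. The defining atrial markers were dim. Myl7, the atrial regulatory light chain, read 91.6 and 107.9 units in wild type against 93.6 and 99.8 units in the knockout, which is -0.00031 as a log2 fold change. Myl4, the atrial essential light chain, was at 6.37 and 7.44 in wild type against 6.60 and 6.31 in the knockout on the log2 scale, highest on the second wild-type array and lowest on the second knockout array, where Nppa was highest. Sln and Mybphl had no named probe.

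Over the whole atrial list, 13 of 16 genes were measured, 10 of them higher and 3 lower in the knockout, none at an unadjusted p under 0.05, with a median log2 fold change of 0.031. Chrm2, at 0.09, was the highest of them, Kcnk3, at -0.06, lay lower, and Cacna2d2, Dkk3, Fgf12, Kcna5, Kcnj3, Nr2f1, Nr2f2, Stard10 and Clu lay between 0.0077 and 0.085. Fgf12 was above background on 2 arrays only. The summed normalized intensity of the list was 3526 and 3683 units in wild type against 3290 and 3968 units in the knockout, most of it from Clu, which other cells also express. The groups overlapped in this sum. The ventricular list had 12 of 12 genes measured, 8 higher and 4 lower, with a median of 0.038. Its sum was 94493 and 93874 units in wild type against 94358 and 97349 units in the knockout. Most of it came from the very bright genes Myl2, Myl3 and Pln. Quantile normalization sets values at these top ranks, so the sums are largely fixed by it. Myl2, the ventricular light chain, read 41652 and 55654 units in wild type against 44774 and 38619 units in the knockout. Its normalized values of 15.37 to 15.51 were set by rank and do not show that it was level. Myh7, the slow myosin heavy chain, had a log2 fold change of 0.0056 ± 0.26 (SE). The others were the transcription factors Irx3, Irx4, Irx5 and Hey2 and the genes Kcne1, Lbh, Mpped2, Pln and Rpl3l, with log2 fold changes from -0.14 to 0.10. Myl3 was at 14.88 and 14.67 in wild type against 14.97 and 15.05 in the knockout after normalization. Its unadjusted limma p was 0.0434 and its adjusted p 0.727. Before normalization its spots read 29633 and 32579 units in wild type against 31006 and 29091 units in the knockout. The groups overlapped in these spots, and the ratio in the authors' table was 1.07.

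**Figure D4:**
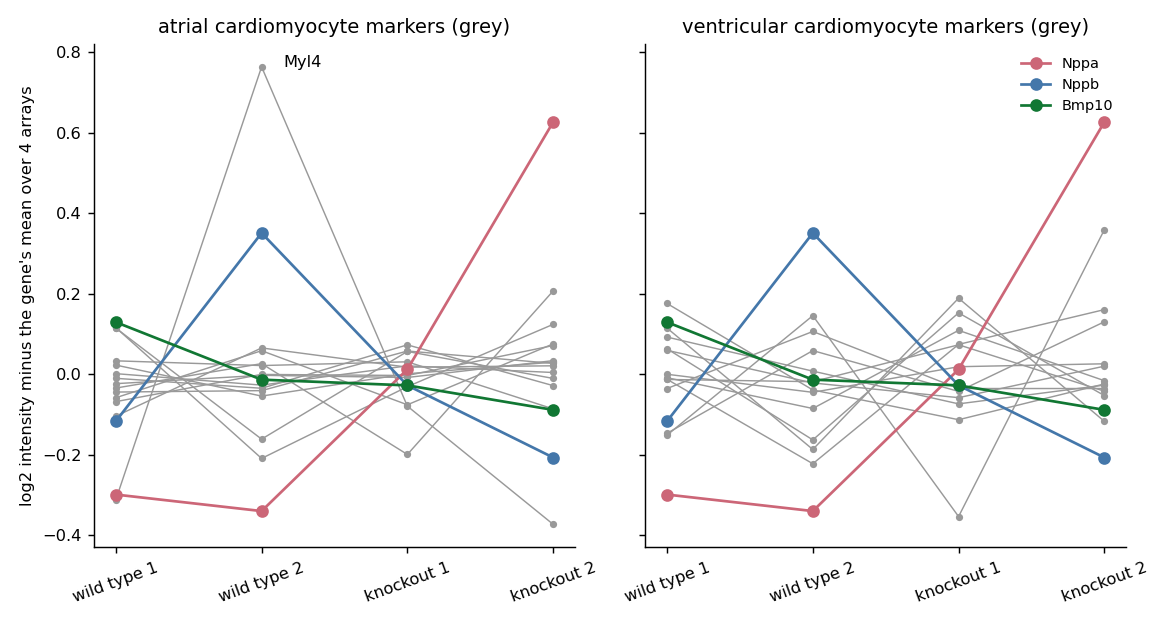
Log2 intensity of each atrial (left, grey) and ventricular (right, grey) marker on each array, as the difference from that gene's mean over the 4 arrays, with Nppa (red), Nppb (blue) and Bmp10 (green). Lines join the values of a gene and imply no order of the arrays. Myl4 is highest on the second wild-type array, while Nppa is highest on the second knockout array.

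Values with SE from here on are log2 fold changes, knockout minus wild type. The 12 measured genes, of 14, of the blood and immune list averaged 6.69 and 7.14 in wild type against 7.24 and 7.25 in the knockout on the log2 scale, with a median log2 fold change of 0.063. Hba-a2 and Hbb-bs of haemoglobin read 447 and 467 units on the first wild-type array, and from 1275 to 1466 units on the other 3. The 4 measured haemoglobin genes, with Hbb-b2 and Hbb-bt named after their values were seen, all lay higher on both knockout arrays than on both wild-type arrays. Of all genes, 19.4% did so. The haemoglobin means were 1.85- to 2.04-fold higher, and all 4 genes were lowest on the first wild-type array. Hba-a2, at 1.03 ± 0.48 (SE), had the largest fold change of all genes tested, with a limma adjusted p of 0.776. The Hbb genes among them are near-identical copies, so the probes of these Hbb genes may share signal. Alas2, the haem synthesis enzyme of red cells, was 0.13 ± 0.04 (SE). The leukocyte genes of the list, named after their values were seen, went both ways. Adgre1, Cd3e and S100a9 had log2 fold changes of -0.051, -0.023 and -0.075. Cd68, Cd79a, Ptprc and S100a8 had 0.10, 0.018, 0.013 and 0.023, against 0.89 to 1.03 for the haemoglobin genes. The part of blood in the differences above was not tested. The endothelial list, in which Fabp4 was 0.22 ± 0.07 (SE) and Egfl7 -0.27 ± 0.05 (SE), was higher in 7 of 14 genes. The fibroblast list was higher in 8 of 14, with decorin (Dcn) at -0.47 ± 0.13 (SE) and the mesothelial gene Upk3b at 0.12 ± 0.04 (SE). Col3a1 of that list, named after its values were seen, was 0.49 ± 0.30 (SE). It was low on the second wild-type array alone, at 327 units against 536 to 554 units on the other arrays. The smooth muscle list was higher in 3 of 10. Gsn and Flt1, bright genes of the fibroblast and endothelial lists, were -0.13 ± 0.09 (SE) and 0.20 ± 0.10 (SE), and Acta2 and Des of smooth muscle were 0.31 ± 0.17 (SE) and -0.09 ± 0.12 (SE).

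The rest of the natriuretic pathway was read from lists that were drawn up with earlier results of these arrays known. No gene of these lists passed the adjusted test. Of the 12 list medians, those of the cell type lists included, 11 turned in sign or reached 0 under at least 1 alternative, the blood list being the exception, so no direction is read from them. Of the peptidases and ligands of clearance, 9 of 10 were measured, 6 higher and 3 lower, with a median of 0.040 and none at an unadjusted p under 0.05. Ide, the insulin-degrading enzyme, which also degrades ANP, was at 8.59 and 8.57 in wild type against 8.63 and 8.71 in the knockout. Ece1 of endothelin processing was 0.05 ± 0.07 (SE) and Ace of angiotensin processing -0.03 ± 0.04 (SE). Neprilysin (Mme), the main degrading peptidase, was dim, with 0.040 ± 0.042 (SE), and Ostn, the musclin peptide that binds the clearance receptor, was 0.026 ± 0.043 (SE). These last 2 genes were named after their values were seen.

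Of other genes of prohormone processing and secretory granules, 15 of 20 were measured, 9 higher and 6 lower, with a median of 0.012 and none at an unadjusted p under 0.05. Cpe, carboxypeptidase E, was at 10.37 and 10.40 in wild type against 10.38 and 10.65 in the knockout, highest on the second knockout array like Nppa and Pam. Spint2, an inhibitor of membrane serine proteases, was 0.13 ± 0.07 (SE), and Galnt1, a glycosyltransferase, was 0.05 ± 0.11 (SE).

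On the cGMP side, 27 of 32 genes were measured, 12 higher and 15 lower, with a median log2 fold change of -0.015. Rgs2, a regulator that protein kinase G activates to switch off Gq signalling, was the 1 gene of the 27 at an unadjusted p under 0.05, against 6.74% of all genes. It was at 9.16 and 9.24 in wild type against 9.41 and 9.50 in the knockout, a log2 fold change of 0.26 ± 0.06 (SE) with a limma adjusted p of 0.727. Phospholamban (Pln) was -0.10 ± 0.05 (SE) and Vasp, a substrate of protein kinase G, 0.04 ± 0.14 (SE). Prkg1, the kinase itself, was dim, with -0.06 ± 0.04 (SE), and was named after its value was seen.

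Of the transcription factors known to act on Nppa or Nppb, 32 of 35 were measured, 18 higher and 14 lower, with a median of 0.019. At an unadjusted p under 0.05 there were 2 higher and 3 lower, against 6.74% of all genes. Hdac5, a deacetylase that represses MEF2, was at 9.28 and 9.36 in wild type against 9.04 and 8.77 in the knockout. Mef2a was -0.26 ± 0.05 (SE) and Zfpm2, the GATA4 cofactor FOG2, -0.23 ± 0.05 (SE). Gata6 was 0.16 ± 0.05 (SE) and Myocd, the cofactor of serum response factor, 0.13 ± 0.04 (SE). Nkx2-5 and Klf13, bright factors of the list, were -0.05 ± 0.09 (SE) and 0.18 ± 0.15 (SE). Gata4 and Tbx5, named after their values were seen, were -0.03 ± 0.05 (SE) and 0.08 ± 0.06 (SE).

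Of BMP10 receptors and signalling genes, 17 of 20 were measured, 7 higher and 10 lower, with a median of -0.030 and none at an unadjusted p under 0.05. The targets Id3 and Id1 were -0.11 ± 0.10 (SE) and -0.04 ± 0.10 (SE), and the shared mediator Smad4 was -0.01 ± 0.05 (SE).

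Genes of the fetal and load-responsive programme, to which Nppa and Nppb belong, went both ways. Of 20, 17 were measured, 12 higher and 5 lower, with a median of 0.046, and 3 higher and 1 lower at an unadjusted p under 0.05, against 6.74% of all genes. Acta1, skeletal alpha-actin, read 2464 and 2150 units in wild type against 4350 and 2832 units in the knockout. Unlike Nppa, it was highest on the first knockout array. Tnnt1, slow skeletal troponin T, was at 7.27 and 7.10 in wild type against 7.61 and 7.56 in the knockout, a log2 fold change of 0.40 ± 0.07 (SE), and Xirp1 was 0.17 ± 0.05 (SE). Ankrd1, a stretch-responsive ankyrin repeat protein, was at 13.12 and 12.90 in wild type against 12.44 and 12.80 in the knockout, a log2 fold change of -0.39 ± 0.15 (SE). Ccn2, a matricellular protein named after its values were seen, was high on the second wild-type array alone, at 840 units against 263 to 323 units on the other arrays. The bright genes Actc1, Myh6 and Csrp3 were 0.13 ± 0.09, 0.06 ± 0.07 and -0.04 ± 0.07 (SE).

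**Figure D5:**
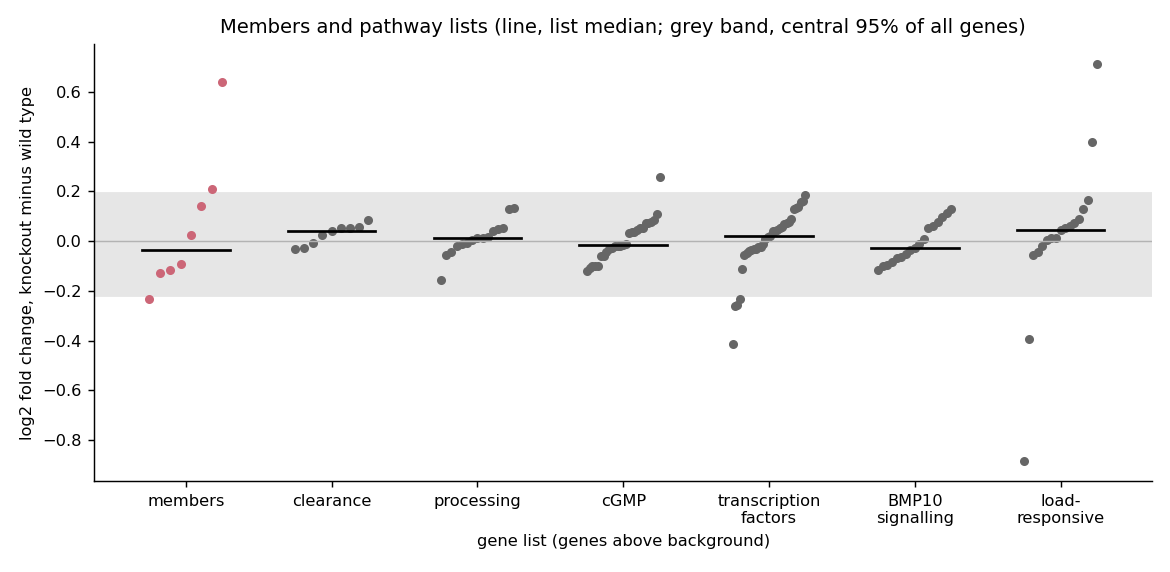
Log2 fold change (knockout minus wild type, vertical axis) of each measured gene in the members and the 6 pathway lists, with each list's median as a line and the central 95% of all 15955 genes, -0.22 to 0.19, as a grey band. Nppa, at 0.64, lies outside the band, as do Pam, narrowly, and Nppb, narrowly, on the lower side, and of the lists Acta1, Tnnt1 and Rgs2 lie above it and Ccn2, Hdac5, Ankrd1, Mef2a, Klf4 and Zfpm2 below it.

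The genes whose pattern was most like that of Nppa were found by the distance between log2 values, each minus the gene's mean, over the 4 arrays. The nearest were H2-Q6, Abcg2, H2-K1, H2-Q7 and Art3, with distances of 0.185, 0.233, 0.252, 0.257 and 0.263 log2 units. H2-Q6, H2-K1 and H2-Q7 encode MHC class I heavy chains and can share signal between near-identical genes, Abcg2 is an efflux transporter, and Art3 is an ADP-ribosyltransferase family member. All 5 were highest on the second knockout array, as Nppa was, which follows from choosing them by their likeness to Nppa. With 4 arrays such likeness is a description of these arrays.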

How the data were processed

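Per the labels, total RNA was amplified to amino allyl RNA, coupled to Cy5 and hybridised to Toray arrays in 1 colour. Per the file headers, the deposited scanner files give the median pixel intensity of each of 27456 spots and of its local background on a linear scale, combined over several scanner gains in a way the sources used here do not give. The authors' deposited table, linear intensity with a median of 25 per column, followed a straight line of the spot medians with residuals up to 0.0523 units. Its empty cells numbered 3714 to 4955 per array.

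Spot medians were corrected by normexp (offset 50) in limma 3.58.1 under R 4.3.3, without subtracting local background, which followed the spots (correlation of log2 values 0.928 to 0.965). Quantile-normalized log2 values of probes above background on at least 2 arrays, the brightest per gene, were fitted with lmFit and eBayes without covariates. P-values are two-sided and adjusted by Benjamini-Hochberg over all 15955 genes. The fit was tested on simulated data with planted changes larger than that of Nppa, which does not measure its power in these data. Symbols came from the platform annotation, through Entrez IDs.

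The members, lists, tests and alternatives were chosen with earlier results of these data known. Named were all members; of pathway lists the 3 brightest genes, of other cell type lists the 2 brightest, and in each those at an unadjusted p under 0.05; all atrial and ventricular markers but 1, which is not reported here; Trpc6; and the 5 genes nearest to Nppa. Of 211 listed genes, 199 had a named probe. Precision is limited by the number of arrays.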

Additional observations from a re-analysis of the deposited data

How the results depend on the processing

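The alternatives changed the background correction, the scaling, the filter, the source of values, the probe rule, the variance model and the design, or left out 1 array. Nppa, Nppb, Bmp10 and Pam kept their sign in the 10 alternatives that moved any member's fold change. With local background subtracted, Corin was 0.018 and Npr2 -0.047 on the log2 scale, both turned in sign; the cause was not tested. With 1 array left out, Corin ranged from -0.22 to 0.035, Furin from -0.34 to 0.078 and Npr3 from -0.00093 to 0.047.

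No alternative with all 4 arrays called a gene at an adjusted p under 0.05 in limma. With 1 array left out the count was 0 to 1, and the gene called without the second wild-type array was Hba-a2. Genes at an unadjusted p under 0.05 numbered 679 in the authors' table and 444 to 2344 with 1 array left out, highest without the first wild-type array and lowest without the second knockout array. Among members that count was 2 after median scaling, with Bmp10 beside Nppa, and 1 to 3 with 1 array left out. The members were Corin, Nppb and Npr2 without the first wild-type array, Bmp10 without the second, Nppa and Pam without the first knockout array, and Furin and Nppa without the second. With local background subtracted the member was Nppb. Nppa had an unadjusted p of 0.296 with local background subtracted, 0.0645 without the first wild-type array and 0.0767 without the second. Groups did not overlap in 10015 to 12084 genes and in 4 to 7 members with 1 array left out, since 2 against 1 array overlap less often. Under 75th percentile scaling the median of all genes was 0.039, and genes at an unadjusted p under 0.05 were 718 higher and 415 lower, against 585 and 491 with quantile normalization, 397 and 676 after median scaling and 217 and 462 in the authors' table.

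The replicate numbers of the labels are not known to pair the arrays. Deviations of same-numbered arrays from their group means correlated at 0.0967 over genes. With a replicate block, 2 members were at an unadjusted p under 0.05, Nppa and Pam, and 1148 genes of all. List medians ranged from -0.099 to 0.029 for cGMP, -0.0075 to 0.139 for clearance, -0.011 to 0.055 for processing, -0.0020 to 0.048 for transcription factors, -0.049 to 0.050 for BMP10 signalling and 0 to 0.079 for the fetal programme. Those of cell types ranged from -0.0021 to 0.075 for atrial, -0.00097 to 0.084 for ventricular, -0.028 to 0.040 for endothelial, -0.072 to 0.117 for fibroblast, -0.058 to 0.0090 for smooth muscle and 0.048 to 0.178 for blood genes. Low signal over background limits Nppc, Npr1, Npr3 and Furin. To a lesser degree it limits Npr2 and Bmp10, at 1.54 to 1.85 and 1.69 to 1.97 times the cutoff.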
